A study of Mus musculus with 22 samples.

Results

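A set of 45 genes of macrophages, monocytes and neutrophils was followed through the mouse pancreas, among 16235 genes listed in the deposited count tables. The members were chosen by gene name and comprise 9 genes of leukocytes in general, 11 monocyte and macrophage genes, 6 scavenger and pattern receptors, 3 complement C1q genes, 5 Fc receptors and adaptors, 3 C-type lectins, 3 NADPH oxidase genes and 5 neutrophil genes. The libraries were made from messenger RNA of the whole organ of 22 C57Bl/6 mice, male and female, in 8 groups. Ehmt2fl/fl mice carried floxed Ehmt2, which encodes a histone H3 lysine 9 methyltransferase, and Ehmt2+/+ mice carried the intact gene. Mice of both genotypes carried a Cre. Pdx1-Cre and P48-Cre, which is expressed from the Ptf1a locus, are active in pancreatic epithelium and not in leukocytes. Libraries of the whole organ do not show which cells expressed each of the 45 genes. Acute pancreatitis (AP) was induced in 4-week-old mice, fasted for 12 h, by injecting caerulein (50 µg per kg) 8 times at intervals of 1 h, and the mice were killed 18 h from the start. AP groups held 2 Ehmt2fl/fl and 4 Ehmt2+/+ mice with Pdx1-Cre, and 3 Ehmt2fl/fl and 2 Ehmt2+/+ mice with P48-Cre. Untreated Pdx1-Cre mice were 3 Ehmt2fl/fl and 2 Ehmt2+/+ young adults (YA) of 4 weeks, and 3 Ehmt2fl/fl and 3 Ehmt2+/+ postnatal (PN) mice of 10 days. No untreated P48-Cre library was analysed here, and no fast or injection is described for the untreated mice.

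Neutrophils and monocytes leave the blood within hours of tissue injury, drawn by chemokines that bind receptors such as Cxcr2 and Ccr2. Monocytes then become macrophages, which join the resident macrophages of the organ and clear dying cells through scavenger receptors, complement and Fc receptors. In caerulein pancreatitis acinar cells are damaged by premature activation of digestive enzymes, and these myeloid cells are the main early infiltrate.

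Library totals ranged from 14229980 to 40321967 counts, and levels are given as CPM, counts scaled to the TMM library size. Counts of the 10 acinar marker genes took 15.8 to 18.5% of a library in AP Pdx1-Cre Ehmt2fl/fl against 19.5 to 30.8% in Ehmt2+/+, and 19.8 to 24.7% in AP P48-Cre Ehmt2fl/fl against 23.95 to 26.04% in Ehmt2+/+. Untreated YA libraries had 39.4 to 41.6% in Ehmt2fl/fl against 38.4 to 49.1% in Ehmt2+/+. All 45 members had at least 1 count in each of the 11 AP libraries. Of the 45, 37 were listed in all 22 libraries, with Marco at 0 counts in 1 YA Ehmt2fl/fl library and S100a9 at 0 in 1 YA Ehmt2+/+ library, while Ms4a4c, Chil3, Clec4d, Clec4e, Clec7a, Csf3r, Trem1 and Cxcr2 were not listed at PN, and Trem1 and Cxcr2 were not listed in untreated YA Ehmt2+/+. The defining macrophage genes Adgre1, Csf1r, Cd68 and the C1q genes were counted in all 22 libraries, whereas the neutrophil gene Ly6g was not among the genes tested.

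The promoters of 36 members were matched by symbol in RefSeq (GRCm38.p6, 250 bases before to 50 after the start). They are shown for members that carry the results below and hold the letters GAGGAAG (reverse complement CTTCCTC), a core bound by Spi1 (PU.1), the transcription factor of the myeloid lineage and itself a member, or TTGCNNAA (TTNNGCAA), bound by C/EBP factors of granulocytes and monocytes. Capitals mark matches on either strand, no match of one motif overlaps one of the other here, and each window runs 5′ to 3′ on the strand of its gene. Positions are bases from the start to the first letter of a match.
Itgam: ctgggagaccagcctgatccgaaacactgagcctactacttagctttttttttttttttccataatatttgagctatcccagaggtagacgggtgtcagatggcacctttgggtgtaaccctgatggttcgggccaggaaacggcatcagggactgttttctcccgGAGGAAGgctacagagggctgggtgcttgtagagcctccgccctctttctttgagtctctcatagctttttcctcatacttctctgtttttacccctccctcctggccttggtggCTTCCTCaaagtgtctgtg
Csf3r: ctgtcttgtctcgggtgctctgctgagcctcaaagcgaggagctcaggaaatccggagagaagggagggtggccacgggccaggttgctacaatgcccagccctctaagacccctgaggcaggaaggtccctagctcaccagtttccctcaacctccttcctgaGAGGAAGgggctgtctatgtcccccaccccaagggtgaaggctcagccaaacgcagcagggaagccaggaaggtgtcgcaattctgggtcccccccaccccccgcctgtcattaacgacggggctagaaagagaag
S100a8: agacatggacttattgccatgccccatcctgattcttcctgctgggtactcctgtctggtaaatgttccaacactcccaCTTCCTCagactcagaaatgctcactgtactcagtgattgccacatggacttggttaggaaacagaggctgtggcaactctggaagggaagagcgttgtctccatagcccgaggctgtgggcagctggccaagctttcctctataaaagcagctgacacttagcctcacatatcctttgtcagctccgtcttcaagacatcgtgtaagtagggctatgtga
Mrc1: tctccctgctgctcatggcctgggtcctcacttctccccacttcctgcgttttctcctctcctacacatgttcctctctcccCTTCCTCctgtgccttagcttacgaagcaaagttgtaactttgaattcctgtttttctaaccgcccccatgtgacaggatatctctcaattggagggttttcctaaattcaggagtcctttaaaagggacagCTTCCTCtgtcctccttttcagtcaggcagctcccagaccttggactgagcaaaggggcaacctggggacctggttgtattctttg
Fcgr1: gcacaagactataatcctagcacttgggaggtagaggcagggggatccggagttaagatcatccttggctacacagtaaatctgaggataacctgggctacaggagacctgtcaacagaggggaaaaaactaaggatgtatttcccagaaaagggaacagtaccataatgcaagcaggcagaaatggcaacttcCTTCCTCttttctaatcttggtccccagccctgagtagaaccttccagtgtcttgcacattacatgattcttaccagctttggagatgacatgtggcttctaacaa
Fcgr3: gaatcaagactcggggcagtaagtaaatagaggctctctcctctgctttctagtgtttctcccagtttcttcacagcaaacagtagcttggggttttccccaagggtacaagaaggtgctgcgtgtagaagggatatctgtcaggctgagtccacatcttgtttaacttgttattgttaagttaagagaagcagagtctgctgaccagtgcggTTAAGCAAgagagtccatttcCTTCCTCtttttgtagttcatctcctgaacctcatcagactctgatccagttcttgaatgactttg
Itgam (chr7:128062390-128062689, plus strand) has the core at -84 and 32, and Mrc1 (chr2:14229164-14229463, plus strand) has it at -168 and -36. Csf3r (chr4:126024409-126024708, plus strand) has it at -86, S100a8 (chr3:90668821-90669120, plus strand) at -171 and Fcgr1 (chr3:96293920-96294219, minus strand) at -56. Fcgr3 (chr1:171059345-171059644, minus strand) has the Spi1 core at -16 and the C/EBP letters at -37, and is the only one of the 36 members with both. This RefSeq start lies inside the gene as GENCODE places it, from 171051174 to 171064935. A further RefSeq window of Fcgr3, from 171059354, holds the same matches. Of the 36 members, 13 (36.1%) hold the Spi1 core, against 15.4% of 27025 genes with a promoter in the table. The C/EBP letters are in 4 members (11.1%), against 12.2% of genes. These are matches of letters and no measurement of binding.

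The comparison of Ehmt2fl/fl with Ehmt2+/+ pancreas after caerulein asked whether loss of Ehmt2 in the epithelium alters the myeloid genes of the inflamed organ. Over both drivers, 30 of the 45 members were higher in Ehmt2fl/fl and 0 were lower, where passing needed an edgeR FDR (adjusted p) below 0.1 together with a log2 difference of 1 or more. Of all 14440 genes tested, 5.32% passed as higher and 2.76% as lower. By edgeR, 39 members had an unadjusted p under 0.05. The members had a median log2 difference of 1.32, against -0.01 for all genes, and 43 of the 45 were positive. The summed CPM of the members was 4329 and 3678 in AP Pdx1-Cre Ehmt2fl/fl, against 1746, 2198, 1359 and 1784 in Ehmt2+/+. With P48-Cre the sum was 3334, 3126 and 5715 in Ehmt2fl/fl, against 2072 and 1215 in Ehmt2+/+. The groups did not overlap with either driver. For 25 members every Ehmt2fl/fl library of either driver lay above every Ehmt2+/+ library of either driver, which held for 6.68% of all genes, and for 0 members every one lay below (4.16% of all genes). In whole tissue, more cells of a type and more RNA per cell cannot be told apart.

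The share of ribosomal RNA also differed between the groups. Counts of 3 genes that overlap ribosomal RNA sequence took 19.2 and 24.7% of a library in AP Pdx1-Cre Ehmt2fl/fl, against 32.1, 24.2, 22.4 and 39.6% in Ehmt2+/+, and 15.8, 14.3 and 18.2% in AP P48-Cre Ehmt2fl/fl, against 35.6 and 33.03% in Ehmt2+/+. The groups overlapped with Pdx1-Cre and were apart with P48-Cre. With this share in the model, which was added once the data had been seen, the members' median over both drivers was 1.33 and 44 of 45 were positive, but 23 passed by edgeR, 15 of them among the 30. The 15 included Spi1, Cd14, Mrc1, Ccr2, Fcgr3, Trem1 and Cxcr2, while Itgam, Csf3r, S100a8, S100a9, Clec4e, Lyz2 and Chil3 were among those lost, S100a8 at a log2 of 2.04 ± 0.80 (FDR = 0.14). Ptprc, at -0.08 without the share in the model, passed as higher with it (1.84 ± 0.58, FDR = 0.080). With P48-Cre alone 0 members passed, with 19 at an unadjusted p under 0.05 and a median of 1.33. With Pdx1-Cre alone 21 passed, 16 of them among those that passed without the share.

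**Figure D1:**
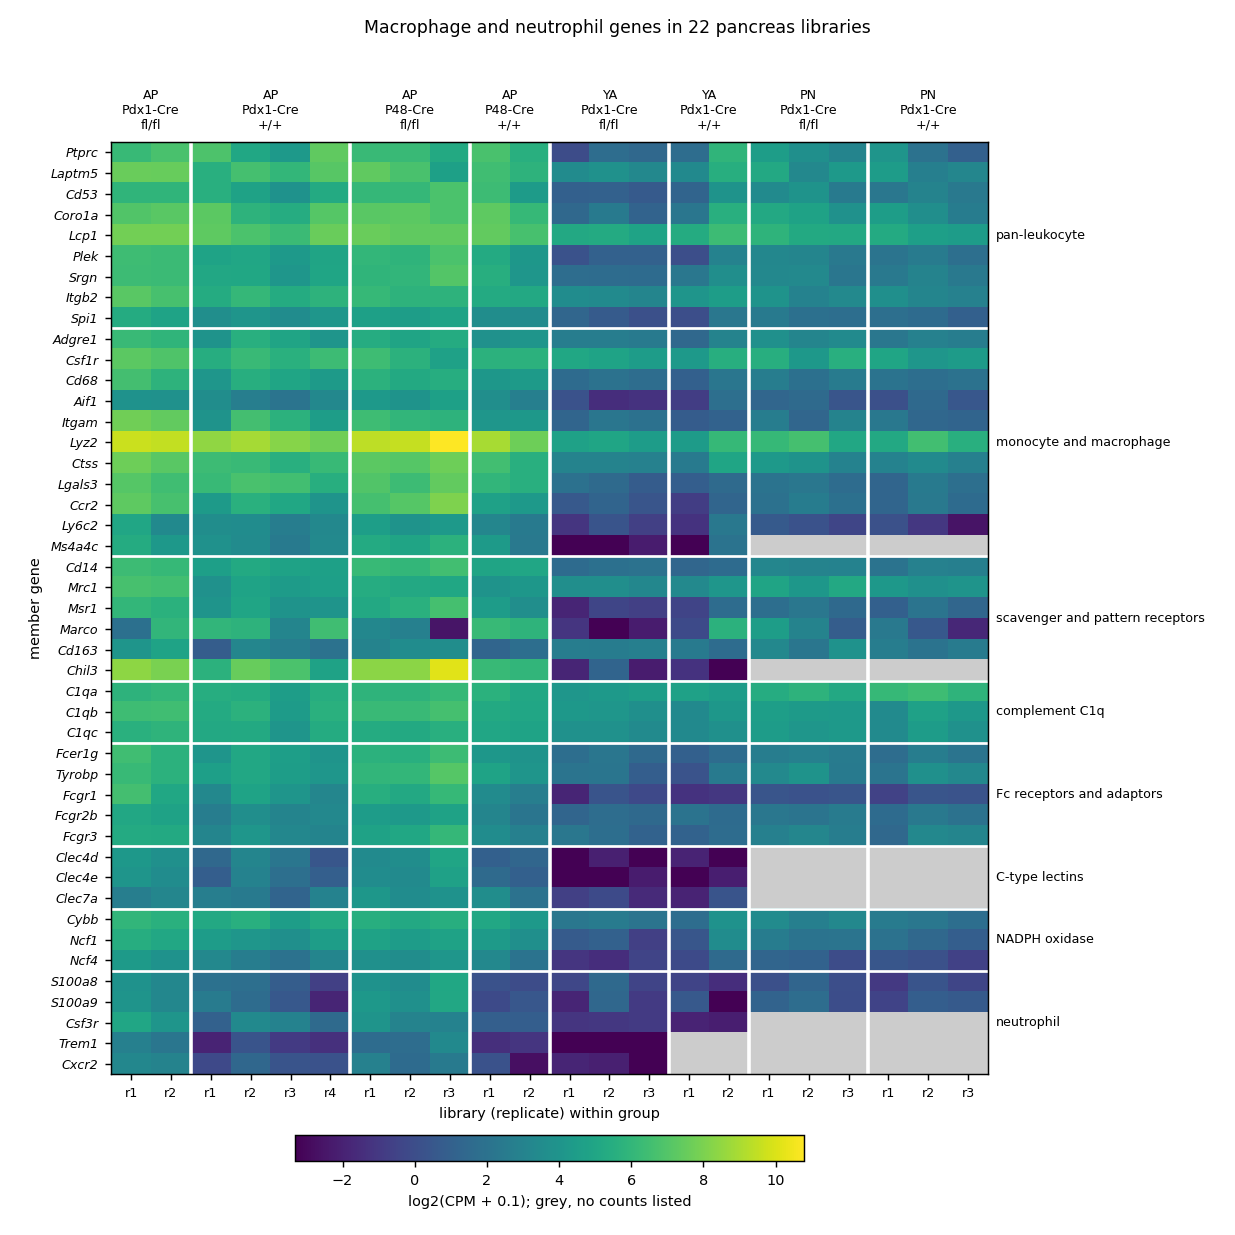
Level of the 45 members, as log2(CPM + 0.1), in each of the 22 libraries, with genes grouped by role and grey where no count is listed. Most members are higher in the AP columns than in the YA and PN columns, and within each driver most are higher in the Ehmt2fl/fl than in the Ehmt2+/+ columns, with Marco and Ptprc among the exceptions.

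Neutrophil genes had the largest differences of the 8 roles by median, with a median log2 of 3.18 over both drivers, and 5 of 5 passed. Trem1 (ENSMUSG00000042265.13, chromosome 17, 48232768 to 48246924, GRCm38), a receptor that amplifies inflammatory signals in neutrophils and monocytes, had 6.98 and 4.59 CPM in AP Pdx1-Cre Ehmt2fl/fl, against 0.169, 1.19, 0.4202 and 0.287 in Ehmt2+/+. With P48-Cre it had 3.08, 3.24 and 10.2 CPM in Ehmt2fl/fl, against 0.271 and 0.346 in Ehmt2+/+. Each Ehmt2fl/fl library was above every Ehmt2+/+ library (log2 3.69 ± 0.53 (SE), FDR = 0.0011, 12.9-fold). Cxcr2, the receptor for the chemokines Cxcl1, Cxcl2 and Cxcl5, had 9.01 and 7.77 CPM in Pdx1-Cre Ehmt2fl/fl, against 0.759, 2.49, 1.16 and 1.08 in Ehmt2+/+, and 7.36, 2.99 and 5.52 CPM in P48-Cre Ehmt2fl/fl, against 1.09 and 0.0494 in Ehmt2+/+. Its groups did not overlap either (log2 2.83 ± 0.52, FDR = 0.0040). S100a8, a subunit of calprotectin, the main cytosolic protein of neutrophils, had 14.7 and 9.16 CPM in Pdx1-Cre Ehmt2fl/fl, against 3.79, 3.49, 1.72 and 0.538 in Ehmt2+/+, and 14.6, 11.5 and 33.5 CPM in P48-Cre Ehmt2fl/fl, against 1.09 and 0.8899 in Ehmt2+/+. It rose 9.09-fold (log2 3.18 ± 0.59, FDR = 0.0043), and S100a9, the other subunit, rose 9.06-fold (FDR = 0.014). Csf3r, the receptor for the granulocyte growth factor Csf3, had 33.3 and 16.7 CPM in Pdx1-Cre Ehmt2fl/fl, against 1.98, 10.2, 7.53 and 2.83 in Ehmt2+/+, and 15.8, 7.999 and 7.45 CPM in P48-Cre Ehmt2fl/fl, against 1.81 and 1.78 in Ehmt2+/+. Groups of the same driver did not overlap, but the lower P48-Cre Ehmt2fl/fl libraries lay below the highest Pdx1-Cre Ehmt2+/+ library (log2 2.29 ± 0.46, FDR = 0.0063).

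All 5 Fc receptors and adaptors were higher, with a median log2 of 1.79. Fcgr2b, the inhibitory receptor for IgG, had 34.8 and 27.6 CPM in AP Pdx1-Cre Ehmt2fl/fl, against 6.24, 12.5, 8.05 and 9.71 in Ehmt2+/+, and 22.5, 19.9 and 28.01 CPM in P48-Cre Ehmt2fl/fl, against 8.55 and 4.45 in Ehmt2+/+ (log2 1.79 ± 0.22, FDR = 5.2e-04). Every Ehmt2fl/fl library was above every Ehmt2+/+ library. Fcer1g, the chain that couples activating Fc receptors to the kinase Syk, had 88.7 and 54.3 CPM in Pdx1-Cre Ehmt2fl/fl, against 16.7, 34.8, 23.7 and 15.6 in Ehmt2+/+, and 53.1, 48.8 and 80.6 CPM in P48-Cre Ehmt2fl/fl, against 18.003 and 15.03 in Ehmt2+/+ (log2 1.74 ± 0.26, FDR = 0.0013). Fcgr3 (ENSMUSG00000059498.13, chromosome 1, 171051174 to 171064935), an activating low-affinity IgG receptor whose promoter is printed above, had 39.1 and 38.2 CPM in Pdx1-Cre Ehmt2fl/fl, against 8.56, 17.1, 9.24 and 8.099 in Ehmt2+/+, and 28.03, 33.5 and 68.8 CPM in P48-Cre Ehmt2fl/fl, against 11.8 and 6.92 in Ehmt2+/+. That is 4.002-fold (log2 2.00 ± 0.30, FDR = 0.0014). Tyrobp (DAP12), the adaptor of Trem1 and related receptors, rose 3.06-fold (FDR = 0.0035), and Fcgr1, the high-affinity IgG receptor, 4.77-fold (FDR = 0.0039). Activating and inhibitory receptors thus moved in the same direction. The Fcgr genes share sequence, and reads that fit more than 1 of them may have been split between them.

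Of the 6 scavenger and pattern receptors, 5 were higher and Marco was not. Cd14, the coreceptor for bacterial lipopolysaccharide, had 83.4 and 71.3 CPM in AP Pdx1-Cre Ehmt2fl/fl, against 25.2, 37.6, 28.3 and 26.3 in Ehmt2+/+, and 71.7, 65.7 and 90.2 CPM in P48-Cre Ehmt2fl/fl, against 30.2 and 32.9 in Ehmt2+/+. It had the lowest FDR of the 45 members (log2 1.32 ± 0.15, FDR = 2.6e-04). Mrc1 (ENSMUSG00000026712.3, chromosome 2, 14229392 to 14332057), the mannose receptor of resident and repair macrophages, had 104 and 91.8 CPM in Pdx1-Cre Ehmt2fl/fl, against 14.1, 28.8, 21.7 and 25.1 in Ehmt2+/+, and 43.5, 37.04 and 33.7 CPM in P48-Cre Ehmt2fl/fl, against 15.02 and 17.4 in Ehmt2+/+ (log2 1.70 ± 0.22, FDR = 7.2e-04). Every Ehmt2fl/fl library exceeded every Ehmt2+/+ library. Msr1, a scavenger receptor for modified lipoproteins, had 65.3 and 50.9 CPM in Pdx1-Cre Ehmt2fl/fl, against 15.8, 31.7, 15.3 and 15.6 in Ehmt2+/+, and 37.2, 49.2 and 99.5 CPM in P48-Cre Ehmt2fl/fl, against 22.3 and 12.4 in Ehmt2+/+ (log2 1.68 ± 0.31, FDR = 0.0043). Cd163, which takes up haemoglobin bound to haptoglobin, had 16.1 and 28.9 CPM in Pdx1-Cre Ehmt2fl/fl, against 1.69, 8.84, 6.197 and 3.87 in Ehmt2+/+, and 7.81, 11.4 and 12.2 CPM in P48-Cre Ehmt2fl/fl, against 2.31 and 3.31 in Ehmt2+/+ (log2 2.00 ± 0.37, FDR = 0.0046). Its P48-Cre Ehmt2fl/fl libraries began below the highest Pdx1-Cre Ehmt2+/+ library. Chil3 (Ym1), a chitinase-like protein secreted by activated macrophages and their precursors, rose 5.12-fold (FDR = 0.023), although its levels within P48-Cre Ehmt2fl/fl alone spanned 318 to 1155 CPM.

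Of the 11 monocyte and macrophage genes, 8 were higher, with a median log2 of 1.30. Ccr2, the receptor that brings inflammatory monocytes out of the marrow in answer to Ccl2, Ccl7 and Ccl12, had 154.6 and 104 CPM in AP Pdx1-Cre Ehmt2fl/fl, against 20.8, 50.4, 33.6 and 15.4 in Ehmt2+/+, and 100.3, 132 and 264 CPM in P48-Cre Ehmt2fl/fl, against 27.2 and 19.9 in Ehmt2+/+. Its 5.34-fold difference was the largest of the role (log2 2.42 ± 0.38, FDR = 0.0019). Ctss, the lysosomal protease cathepsin S, had 206 and 145 CPM in Pdx1-Cre Ehmt2fl/fl, against 81.2, 75.9, 47.7 and 72.1 in Ehmt2+/+, and 149.7, 132 and 209 CPM in P48-Cre Ehmt2fl/fl, against 93.2 and 48.3 in Ehmt2+/+ (log2 1.27 ± 0.21, FDR = 0.0024). Cd68, a glycoprotein of macrophage lysosomes, had 93.9 and 56.7 CPM in Pdx1-Cre Ehmt2fl/fl, against 17.3, 46.6, 31.1 and 20.4 in Ehmt2+/+, and 53.5, 38.7 and 44.2 CPM in P48-Cre Ehmt2fl/fl, against 18.003 and 20.6 in Ehmt2+/+ (log2 1.30 ± 0.27, FDR = 0.0078). Itgam (ENSMUSG00000030786.18, chromosome 7, 128062640 to 128118491), the CD11b integrin chain of neutrophils and monocytes, had 210.4 and 168 CPM in Pdx1-Cre Ehmt2fl/fl, against 15.2, 96.2, 54.6 and 23.4 in Ehmt2+/+, and 84.5, 62.5 and 56.1 CPM in P48-Cre Ehmt2fl/fl, against 17.1 and 18.4 in Ehmt2+/+. Within each driver its groups were apart, but 1 Pdx1-Cre Ehmt2+/+ library at 96.2 CPM was above all P48-Cre Ehmt2fl/fl libraries (log2 1.95 ± 0.42, FDR = 0.010). Adgre1 (F4/80), Lyz2 (lysozyme), and the monocyte genes Ly6c2 and Ms4a4c also passed, with log2 values of 1.32, 1.37, 1.28 and 1.59. The remaining members of the role did not pass. Csf1r, the receptor for the macrophage growth factors Csf1 and Il34, had a log2 of 0.60 ± 0.32 (FDR = 0.25), Aif1 (Iba1) 0.95 ± 0.26 (FDR = 0.030) and Lgals3 (galectin-3) 0.81 ± 0.29 (FDR = 0.098). Ly6c2 is close in sequence to Ly6c1, Chil3 to Chil4, and Ms4a4c belongs to a cluster of like genes, so their counts are uncertain to that extent.

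**Figure D2:**
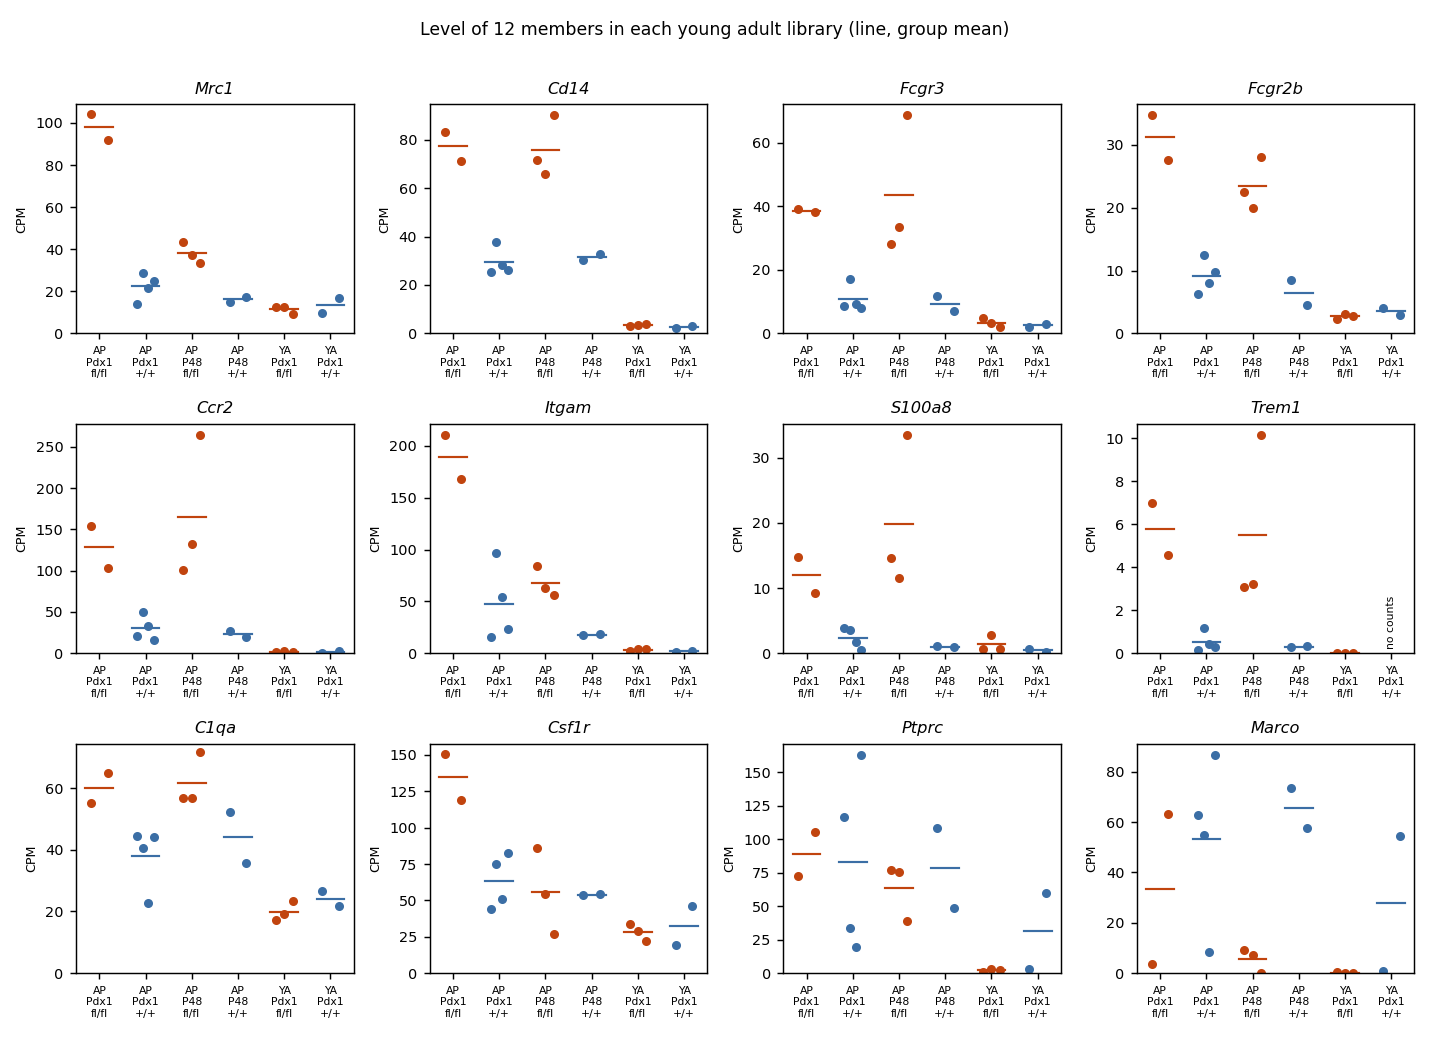
CPM of 12 members in each library of the 6 young adult groups, with Ehmt2fl/fl left of Ehmt2+/+ in each pair, points for mice and lines for group means. Mrc1, Cd14, Fcgr3, Trem1 and S100a8 are apart between the genotypes in AP with either driver, C1qa and Csf1r differ less, and Ptprc and Marco overlap or go the other way.

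The C-type lectins Clec4e (Mincle) and Clec4d (MCL), which form a receptor pair for mycobacterial and self glycolipids, were higher, while Clec7a (Dectin-1), the β-glucan receptor, did not pass. Clec4e had 16.3 and 11.4 CPM in AP Pdx1-Cre Ehmt2fl/fl, against 1.77, 7.59, 3.43 and 1.83 in Ehmt2+/+, and 11.4, 10.6 and 27.2 CPM in P48-Cre Ehmt2fl/fl, against 2.804 and 1.93 in Ehmt2+/+ (log2 2.29 ± 0.46, FDR = 0.0069). Clec4d had 18.1 and 13.5 CPM in Pdx1-Cre Ehmt2fl/fl, against 2.61, 8.36, 4.48 and 1.25 in Ehmt2+/+, and 10.8, 12.2 and 31.4 CPM in P48-Cre Ehmt2fl/fl, against 1.95 and 2.42 in Ehmt2+/+ (log2 2.40 ± 0.51, FDR = 0.0095). Both genes had non-overlapping groups over the drivers. Clec7a overlapped, with 6.49 and 8.86 CPM in Pdx1-Cre Ehmt2fl/fl, against 6.41, 5.55, 2.28 and 7.63 in Ehmt2+/+, and 17.9, 11.6 and 14.5 CPM in P48-Cre Ehmt2fl/fl, against 11.9 and 3.91 in Ehmt2+/+ (log2 0.68 ± 0.34, FDR = 0.23).

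Among the 3 C1q genes, whose products form the recognition unit of the classical complement pathway and are made by macrophages, only C1qb passed. It had 84.004 and 89.5 CPM in AP Pdx1-Cre Ehmt2fl/fl, against 39.97, 53.3, 21.6 and 49.1 in Ehmt2+/+, and 75.4, 76.03 and 98.1 CPM in P48-Cre Ehmt2fl/fl, against 38.5 and 33.3 in Ehmt2+/+ (log2 1.13 ± 0.21, FDR = 0.0040). C1qa had 55.1 and 64.8 CPM in Pdx1-Cre Ehmt2fl/fl, against 44.4, 40.4, 22.7 and 44.1 in Ehmt2+/+, and 56.9, 56.9 and 71.6 CPM in P48-Cre Ehmt2fl/fl, against 52.2 and 35.7 in Ehmt2+/+. Its groups did not overlap, but the log2 of 0.57 ± 0.18 was under 1 (FDR = 0.054). C1qc was at 0.59 ± 0.20 (FDR = 0.083). Whether the 3 genes differ from each other was not tested.

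The NADPH oxidase of phagocytes makes superoxide, with Cybb as its catalytic chain and Ncf1 and Ncf4 as cytosolic subunits. Ncf4 passed, with 20.2 and 14.6 CPM in AP Pdx1-Cre Ehmt2fl/fl, against 9.44, 6.32, 3.92 and 8.56 in Ehmt2+/+, and 13.7, 12.1 and 16.7 CPM in P48-Cre Ehmt2fl/fl, against 9.36 and 4.103 in Ehmt2+/+ (log2 1.19 ± 0.25, FDR = 0.0087). Ncf1 had 44.7 and 35.03 CPM in Pdx1-Cre Ehmt2fl/fl, against 21.96, 16.9, 12.8 and 22.97 in Ehmt2+/+, and 27.9, 22.6 and 28.5 CPM in P48-Cre Ehmt2fl/fl, against 20.8 and 13.002 in Ehmt2+/+. Its FDR was 0.0081 at a log2 of 0.88 ± 0.18, just short of the fold threshold. Cybb was at 0.61 ± 0.20 (FDR = 0.068). For the whole role the differences were positive but mostly under 1 on the log2 scale.

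Of the 9 genes expressed by leukocytes in general, 3 were higher, and the role had a median log2 of 0.80. Spi1 (PU.1), which specifies myeloid cells, had 41.4 and 29.2 CPM in AP Pdx1-Cre Ehmt2fl/fl, against 12.5, 16.4, 11.4 and 16.7 in Ehmt2+/+, and 26.02, 23.1 and 28.8 CPM in P48-Cre Ehmt2fl/fl, against 12.2 and 11.02 in Ehmt2+/+ (log2 1.23 ± 0.14, FDR = 3.8e-04). Plek, the protein kinase C substrate of platelets and leukocytes, had 86.7 and 77.997 CPM in Pdx1-Cre Ehmt2fl/fl, against 29.3, 33.2, 18.98 and 29.9 in Ehmt2+/+, and 64.6, 57.1 and 113 CPM in P48-Cre Ehmt2fl/fl, against 38.9 and 17.9 in Ehmt2+/+ (log2 1.51 ± 0.24, FDR = 0.0020). Srgn, the proteoglycan of secretory granules, had 80.7 and 77.6 CPM in Pdx1-Cre Ehmt2fl/fl, against 35.1, 34.2, 17.1 and 31.1 in Ehmt2+/+, and 60.1, 62.5 and 129.6 CPM in P48-Cre Ehmt2fl/fl, against 45.8 and 17.3 in Ehmt2+/+ (log2 1.41 ± 0.29, FDR = 0.0081). All 3 genes had non-overlapping groups. Itgb2, the β2 chain that pairs with Itgam, had an FDR of 0.0053 at a log2 of 0.98 ± 0.19. Coro1a and Lcp1, actin-binding proteins of leukocytes, and the membrane proteins Laptm5 and Cd53 were positive and did not pass, at log2 values of 0.38, 0.55, 0.78 and 0.80.

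Ptprc and Marco were the 2 members with negative values. Ptprc (CD45, ENSMUSG00000026395.16, chromosome 1, 138062861 to 138175708), the phosphatase on all nucleated blood cells, had 72.3 and 105 CPM in AP Pdx1-Cre Ehmt2fl/fl, against 116, 33.6, 19.5 and 163 in Ehmt2+/+, and 76.998, 75.8 and 38.5 CPM in P48-Cre Ehmt2fl/fl, against 108 and 48.5 in Ehmt2+/+. Its groups overlapped (log2 -0.08 ± 0.49, FDR = 0.94). Marco, a scavenger receptor of macrophages in the marginal zone of spleen and in other lymphoid organs, had 3.58 and 63.3 CPM in Pdx1-Cre Ehmt2fl/fl, against 62.99, 55.1, 8.403 and 86.8 in Ehmt2+/+, and 9.04, 7.13 and 0.0713 CPM in P48-Cre Ehmt2fl/fl, against 73.5 and 57.6 in Ehmt2+/+. With P48-Cre every Ehmt2fl/fl library was lower, as for 14.9% of all genes, while Pdx1-Cre groups overlapped, and neither passed (log2 -3.57 ± 1.39, FDR = 0.19, and -0.67 ± 1.30, FDR = 0.84). The 19 tested lymphocyte markers, 10 of T and NK cells and 9 of B and plasma cells, summed to 18.1 and 591 CPM in Pdx1-Cre Ehmt2fl/fl, against 787, 163, 7.703 and 1080.3 in Ehmt2+/+, and to 558, 441 and 9.87 in P48-Cre Ehmt2fl/fl, against 856 and 344 in Ehmt2+/+. Over both drivers 0 of the 19 passed by edgeR, with 0 at an unadjusted p under 0.05. The 3 libraries with the lowest sums, 1 in each of 3 groups, also had the lowest Marco and Ptprc of their group.

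The lymphocyte markers' part in the results was measured by adding their level to the model, which was decided on once the data had been seen. Over both drivers, 32 members then passed, among them all 30 that rose without it, together with Aif1 and Marco. Marco was lower in Ehmt2fl/fl at a log2 of -1.97 ± 0.54 (FDR = 0.031), close to its value without the covariate but with a smaller error. With the lymphocyte markers in the model Ptprc remained short of the threshold at 0.53 ± 0.33 (FDR = 0.33). With the ribosomal RNA share in the model instead, Marco was at -0.023 ± 1.23 (FDR = 0.99).

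**Figure D3:**
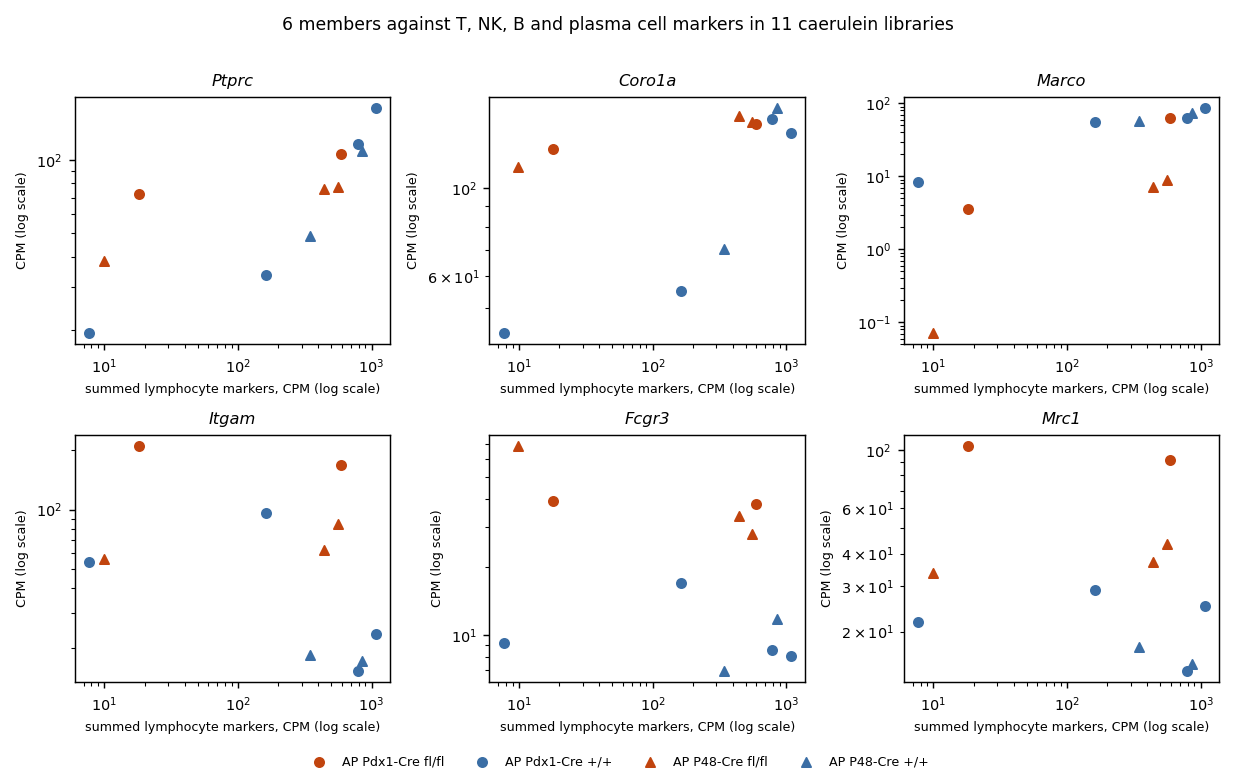
CPM of 6 members against the summed CPM of 19 lymphocyte markers in the 11 AP libraries, both axes logarithmic. Within each group, Marco, Ptprc and Coro1a were lowest in the library with the lowest lymphocyte sum. Over all 11 libraries, Ptprc and Coro1a were lowest, at 19.5 and 43.3 CPM, in the library with the lowest sum, 7.70 CPM. Ptprc was highest, at 163 CPM, in that with the highest sum, 1080.3 CPM. Marco departed from the sum in P48-Cre Ehmt2fl/fl, with 9.04 and 7.13 CPM in libraries with sums of 558 and 441 CPM. Itgam, Fcgr3 and Mrc1 were higher in Ehmt2fl/fl than in Ehmt2+/+ of the same driver over lymphocyte sums from 7.70 to 1080.3 CPM.

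Each driver was also read alone. With Pdx1-Cre, 26 of 45 members were higher in Ehmt2fl/fl (4.22% of all genes) and 0 lower (2.87%), with a median log2 of 1.33 against -0.02 for all genes, and 39 had non-overlapping groups (20.3% of all genes). With P48-Cre, 21 of 45 were higher (4.01% of all genes), with a median of 1.34 against 0.03, and 37 did not overlap (20.8%). The drivers share no library. In 44 of 45 members (97.8%) the log2 values had the same sign with either driver, against 64.8% of 14440 genes, Ptprc being the exception. In all, 18 members passed with both drivers (2.57% of all genes), 8 with Pdx1-Cre alone, 3 with P48-Cre alone and 16 with neither. The interaction of genotype and driver passed for 0 of the 45 by edgeR, as for 0% of all genes, with 0 members at an unadjusted p under 0.05 and 0 passing by DESeq2, so a difference between drivers was not detectable with these libraries. S100a8 had a log2 of 4.31 ± 0.83 with P48-Cre and 2.31 ± 0.61 with Pdx1-Cre, and Mrc1 1.23 ± 0.30 with P48-Cre and 2.10 ± 0.26 with Pdx1-Cre. All 5 Fc receptors and adaptors passed with either driver, and the NADPH oxidase genes passed for 2 of 3 with Pdx1-Cre and 0 of 3 with P48-Cre.

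**Figure D4:**
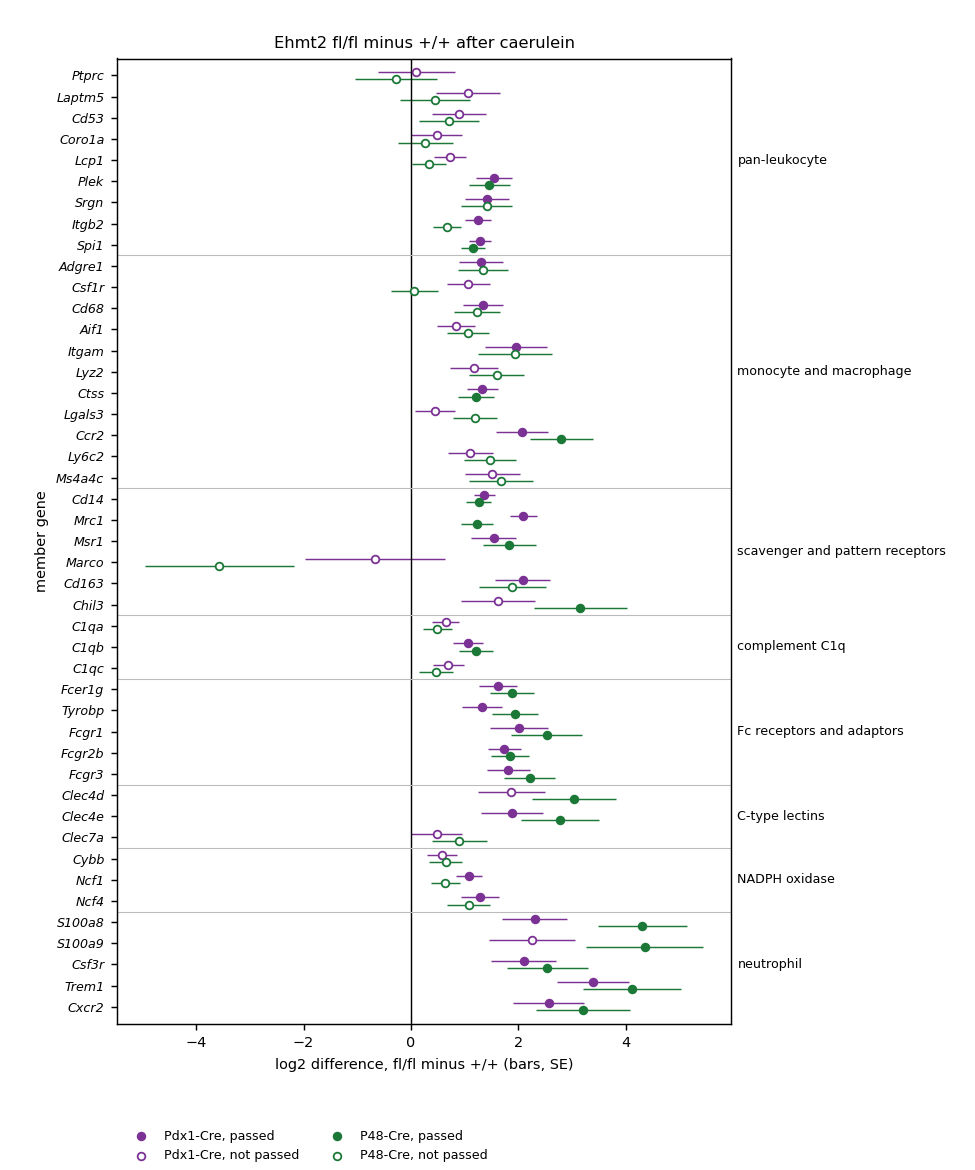
Log2 difference of Ehmt2fl/fl minus Ehmt2+/+ after caerulein for each of the 45 members with Pdx1-Cre (purple) and P48-Cre (green), with bars for standard errors and filled points where the gene passed. Nearly all points lie to the right of 0 with both drivers, and Marco with P48-Cre lies farthest to the left, at -3.57.

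The counts of members that passed within a driver rested on few animals. With Pdx1-Cre they were 2 of 45 when Ehmt2fl/fl replicate 1 was left out, 12 for Ehmt2fl/fl replicate 2, 12 for Ehmt2+/+ replicate 3 and 16 for Ehmt2+/+ replicate 1. With P48-Cre they were 0 when Ehmt2+/+ replicate 2 was left out, 8 for Ehmt2+/+ replicate 1, 10 for Ehmt2fl/fl replicate 3 and 13 for Ehmt2fl/fl replicate 2. Over both drivers 29 to 34 members passed with any 1 library left out, and Ly6c2, without Pdx1-Cre Ehmt2fl/fl replicate 1, was the only one of the 30 to be lost. By Xist and 4 Y-linked genes, both Ehmt2fl/fl mice of AP Pdx1-Cre were male and the 4 Ehmt2+/+ mice female, so sex and genotype cannot be told apart with that driver. With sex in the model, which was added once the data had been seen, 15 members passed with P48-Cre. Over both drivers 30 passed, 28 of them shared with the fit without sex (Lyz2 and Chil3 were lost, Aif1 and Clec7a gained). P48-Cre Ehmt2fl/fl replicate 3, which had the highest CPM of its group for many members, stood apart in its balance of long against short transcripts, at -0.67 on the log2 scale where the other libraries ran from -0.45 to 0.42. With that balance in the model, added at the same stage, 10 members passed with P48-Cre and 32 over both drivers.

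Caerulein against untreated pancreas was compared in each genotype with Pdx1-Cre. In Ehmt2fl/fl, all 45 members were higher after caerulein (18.5% of all genes), with a median log2 of 4.71 against 0.12, and all 45 had non-overlapping groups (40.6%). In Ehmt2+/+, 36 of 43 tested members were higher (10.4% of all genes) and 0 lower (9.61%), with a median of 2.04 against 0.10, and 32 did not overlap as higher (23.1%) and 0 as lower (23.8%). Without YA Ehmt2+/+ replicate 2 the Ehmt2+/+ median was 3.86. No fast is described for the untreated groups, so a fast and caerulein cannot be told apart. Markers of other cell types moved too. Acinar markers were lower after caerulein for 10 of 10 in Ehmt2fl/fl and 9 of 10 in Ehmt2+/+ (median log2 -4.68 and -2.70), and erythroid markers for 6 of 6 and 3 of 5 tested (-4.85 and -1.59). Duct markers were higher for 5 of 6 in either genotype (1.76 and 1.81), and dendritic cell markers for 6 of 7 tested in Ehmt2fl/fl and 1 of 10 in Ehmt2+/+ (2.40 and 0.81). Their part in the members' values was not tested.

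Cd14 had 83.4 and 71.3 CPM in AP Ehmt2fl/fl, against 2.995, 3.56 and 3.93 in YA Ehmt2fl/fl, and 25.2, 37.6, 28.3 and 26.3 CPM in AP Ehmt2+/+, against 2.42 and 2.98 in YA Ehmt2+/+. The rise passed in both genotypes (log2 4.46 ± 0.23, FDR = 2.0e-06 in Ehmt2fl/fl and 3.44 ± 0.26, FDR = 7.9e-06 in Ehmt2+/+). Itgam had 210.4 and 168 CPM in AP Ehmt2fl/fl, against 2.29, 4.48 and 3.71 in YA Ehmt2fl/fl, and 15.2, 96.2, 54.6 and 23.4 CPM in AP Ehmt2+/+, against 1.61 and 2.07 in YA Ehmt2+/+ (log2 5.74 ± 0.70 and 4.69 ± 0.83). Lgals3 rose 42.03-fold in Ehmt2fl/fl and 34.1-fold in Ehmt2+/+. Ccr2 was low before treatment, at 1.41, 2.24 and 1.20004 CPM in YA Ehmt2fl/fl and 0.484 and 2.33 in YA Ehmt2+/+, and rose 80.3-fold in Ehmt2fl/fl and 20.5-fold in Ehmt2+/+.

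Members with 3 counts or fewer in an untreated group are given as ratios of counts. Trem1 had 0 counts in the 3 YA Ehmt2fl/fl libraries and was at least 42.8-fold higher after caerulein, against a floor of 3 counts over the group. Cxcr2 was 93.8-fold higher in Ehmt2fl/fl (95% exact counting interval 25.9 to 776), Clec4d 351-fold (63.0 to 13889) and Clec4e 309-fold (55.3 to 12201). Ms4a4c was 651-fold higher (117 to 25716), or 407-fold without AP Ehmt2fl/fl replicate 1. Marco was 260-fold higher (89.0 to 1263), a value set by AP Ehmt2fl/fl replicate 2, without which it was 26.7-fold, and it was 473-fold without replicate 1. In Ehmt2+/+, Chil3 was 697-fold higher (193 to 5757), Clec4d 62.7-fold (11.2 to 2481), Clec4e 55.3-fold (9.88 to 2190) and Csf3r 42.2-fold (11.6 to 349). Without AP Ehmt2+/+ replicate 2 the folds were 452 for Chil3, 39.1 for Clec4d and 33.2 for Clec4e. Each of these genes had at most 3 counts in the untreated group named and at least 459 in its AP group. With these genes at their bounds, the members' median was 4.69 in Ehmt2fl/fl and 2.04 in Ehmt2+/+. The intervals cover counting error only.

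The 7 tested members that did not pass in Ehmt2+/+ were Ptprc, Csf1r, Mrc1, Marco, Cd163, C1qa and S100a9. Mrc1 had 14.1, 28.8, 21.7 and 25.1 CPM in AP Ehmt2+/+, against 9.85 and 16.96 in YA Ehmt2+/+ (log2 0.75 ± 0.30, FDR = 0.085), whereas AP Ehmt2fl/fl had 104 and 91.8 CPM, against 12.5, 12.5 and 9.05 in YA Ehmt2fl/fl (log2 3.12 ± 0.31, FDR = 2.7e-05). Cd163 had 1.69, 8.84, 6.197 and 3.87 CPM in AP Ehmt2+/+, against 5.33 and 3.11 in YA Ehmt2+/+, and 16.1 and 28.9 CPM in AP Ehmt2fl/fl, against 6.17, 5.94 and 6.76 in YA Ehmt2fl/fl. C1qa had 44.4, 40.4, 22.7 and 44.1 CPM in AP Ehmt2+/+, against 26.5 and 21.9 in YA Ehmt2+/+ (log2 0.66 ± 0.26, FDR = 0.080). Mrc1, Cd163 and C1qa, genes of resident macrophages, were thus all counted before treatment, and C1qa had 17.3, 19.3 and 23.3 CPM in YA Ehmt2fl/fl, against 26.5 and 21.9 in YA Ehmt2+/+.

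**Figure D5:**
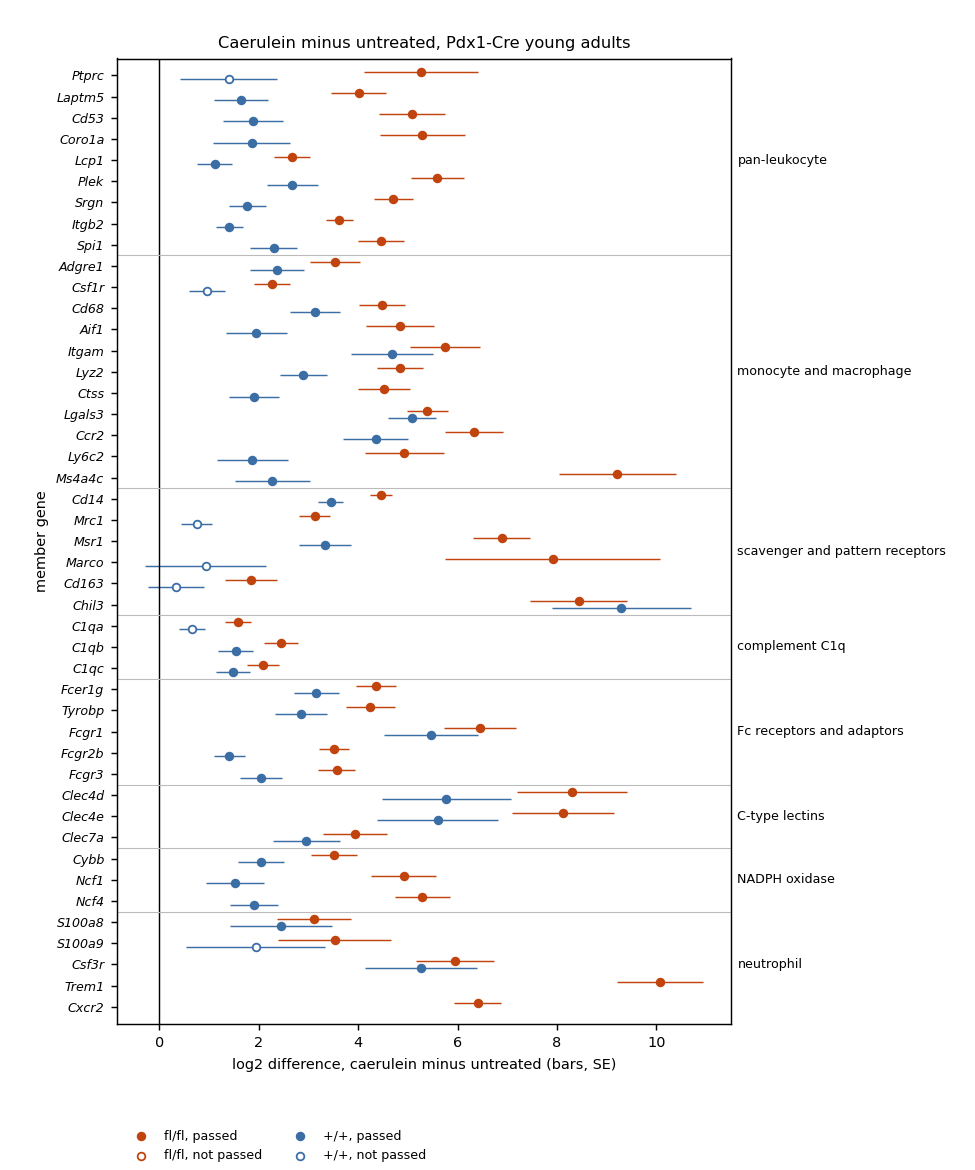
Log2 difference of caerulein-treated minus untreated Pdx1-Cre pancreas for each member in Ehmt2fl/fl (orange) and Ehmt2+/+ (blue), with bars for standard errors and filled points where the gene passed. In Ehmt2fl/fl all 45 values are positive and passed, and in Ehmt2+/+ the 43 values are positive with 36 passing.

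The interaction of genotype and caerulein asks whether the response itself differed. It passed for 5 of 43 members as larger in Ehmt2fl/fl (0.379% of all genes), and 25 members had an unadjusted p under 0.05 by edgeR. The median was 1.95 against 0.00 for all genes, and 42 of 43 were positive, Chil3, with 2 counts in untreated Ehmt2+/+, being the exception. The 5 were Srgn (log2 2.94 ± 0.52, FDR = 0.040), Itgb2 (2.21 ± 0.37, FDR = 0.032), Mrc1 (2.37 ± 0.42, FDR = 0.040), Fcgr2b (2.10 ± 0.43, FDR = 0.060) and Ncf4 (3.38 ± 0.77, FDR = 0.095). Srgn had 3.17, 3.03 and 2.95 CPM in YA Ehmt2fl/fl, against 4.68 and 12.4 in YA Ehmt2+/+, beside 80.7 and 77.6 in AP Ehmt2fl/fl, against 35.1, 34.2, 17.1 and 31.1 in AP Ehmt2+/+. Itgb2 had 11.5, 10.8 and 8.51 CPM in YA Ehmt2fl/fl, against 16.3 and 22.9 in YA Ehmt2+/+, beside 145 and 104 in AP Ehmt2fl/fl, against 41.4, 68.6, 41.9 and 54.9 in AP Ehmt2+/+. Every Ehmt2fl/fl library of both genes was thus below every Ehmt2+/+ library before treatment and above every one after it. The untreated Ehmt2+/+ group is 2 mice, and replicate 2 of them decided the count. By Xist and Ddx3y, replicate 1 was female (119.8 and 0 CPM) and replicate 2 male (0.388 and 16.3 CPM). The part of sex in the interaction was not tested. Without it 0 members passed and the median was 0.81, and without replicate 1 of the same group 20 passed. The count was also 0 when AP Ehmt2fl/fl replicate 1 was dropped, 1 for AP Ehmt2fl/fl replicate 2, 2 for YA Ehmt2fl/fl replicate 2, 3 for YA Ehmt2fl/fl replicates 1 or 3 or AP Ehmt2+/+ replicate 3, and 13 for AP Ehmt2+/+ replicate 4.

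In untreated YA pancreas, 0 of 37 tested members passed between Ehmt2fl/fl and Ehmt2+/+ in either direction (0.305% of all genes were higher and 0.0229% lower), with 12 at an unadjusted p under 0.05 by edgeR and 3 passing by DESeq2. The median log2 was -0.33 against 0.00 for all genes, and 23 of the 37 were negative. Groups did not overlap for 4 members that were higher in Ehmt2fl/fl (14.1% of all genes) and 7 that were lower (14.2%). YA Ehmt2+/+ replicate 2 stood apart from replicate 1. Marco had 0.352, 0 and 0.109 CPM in YA Ehmt2fl/fl, against 0.807 and 54.6 in YA Ehmt2+/+ (edgeR FDR = 0.28), which is 3 counts in Ehmt2fl/fl against 427 in Ehmt2+/+, a ratio of 0.00436 with a 95% exact counting interval of 0.000896 to 0.0128. The ratio was 0.166 without YA Ehmt2+/+ replicate 2 and 0.00245 without replicate 1. Coro1a had 2.64, 5.54 and 2.18 CPM in YA Ehmt2fl/fl, against 4.52 and 48.2 in Ehmt2+/+, and Ptprc 0.881, 3.17 and 2.62, against 3.23 and 59.5. Cd53 had 1.94, 1.98 and 1.53 CPM in YA Ehmt2fl/fl, against 2.26 and 15.1 in Ehmt2+/+. In each of the 4 genes replicate 2 of YA Ehmt2+/+ was above all other untreated YA libraries. Srgn, Ncf1, Itgb2, Msr1, Ncf4 and Lcp1 followed by p, with log2 values of -1.48, -2.25, -0.93, -1.96, -2.05 and -0.79 and FDR values of 0.34 to 0.50. The T and NK cell markers summed to 2.26 and 67.1 CPM in YA Ehmt2+/+ replicates 1 and 2 (10 genes), and the B and plasma cell markers to 72.5 and 255 CPM (9 genes). In YA Ehmt2fl/fl, 1 T and NK cell gene was listed, at 0.327 to 0.528 CPM, and 3 B cell genes summed to 19.5 to 42.2 CPM. Without Ehmt2+/+ replicate 2 the members' median was 0.41 and 0 passed, and without replicate 1 it was -0.68 and 10 passed. With the lymphocyte markers counted in all PN and YA libraries in the model, which were Lck and Jchain alone, the median was 0.18. Neutrophil genes were scarce in untreated pancreas, with S100a8 at 0.705, 2.77 and 0.655 CPM in YA Ehmt2fl/fl, against 0.646 and 0.259 in Ehmt2+/+.

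At PN day 10, 0 of 37 tested members passed between Ehmt2fl/fl and Ehmt2+/+ (0.575% of all genes were higher and 0.105% lower), with 4 at an unadjusted p under 0.05 by edgeR. The median log2 was 0.57 against 0.00 for all genes, and 36 of 37 were positive. Groups did not overlap for 4 members that were higher in Ehmt2fl/fl (9.68% of all genes) and 1 that was lower (4.83%). Without Ehmt2fl/fl replicate 2, 2 members passed. C1qa was the only member with a negative value, with 42.6, 55.8 and 36.5 CPM in Ehmt2fl/fl, against 70.96, 86.2 and 57.01 in Ehmt2+/+. Every Ehmt2fl/fl library was lower for it (log2 -0.71 ± 0.22, edgeR unadjusted p = 0.0080, FDR = 0.31). Mrc1 had 30.1, 17.6 and 36.8 CPM in Ehmt2fl/fl, against 18.4, 13.8 and 15.8 in Ehmt2+/+ (log2 0.77 ± 0.28), Adgre1 13.6, 8.602 and 10.8, against 4.74, 7.28 and 6.31 (0.80 ± 0.31), and Cybb 11.3, 6.61 and 9.66, against 5.66, 4.68 and 3.39 (0.96 ± 0.40). Their FDR values were 0.38 to 0.46, and the groups of Adgre1 and Cybb did not overlap. The members' summed CPM over 37 genes was 594, 484 and 409 in Ehmt2fl/fl, against 381, 442 and 313 in Ehmt2+/+, which overlap. Lymphocyte markers moved with it, as 7 listed B and plasma cell genes summed to 17.5 to 34.2 CPM in Ehmt2fl/fl, against 2.85 to 22.1 in Ehmt2+/+. The 8 listed T and NK cell genes summed to 4.40 to 31.7 CPM in Ehmt2fl/fl, against 2.89 to 18.1 in Ehmt2+/+. Of these markers only Lck and Jchain had counts in all PN and YA libraries, and with their sum as a covariate the median was 0.12. The sex genes were not listed for PN libraries.

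Age was compared within each genotype, YA against PN, on libraries that the genotype comparisons above also use. In Ehmt2fl/fl, 18 of 37 members were lower in YA (13.2% of all genes) and 0 higher (7.64%), with a median log2 of -0.90 against -0.07. Msr1 had 0.176, 0.659 and 0.545 CPM in YA Ehmt2fl/fl, against 3.39, 4.65 and 2.77 in PN Ehmt2fl/fl (log2 -2.81 ± 0.60, FDR = 0.0058). C1qa had 17.3, 19.3 and 23.3 CPM in YA Ehmt2fl/fl, against 42.6, 55.8 and 36.5 in PN Ehmt2fl/fl (-1.10 ± 0.23, FDR = 0.0050), and Cd14 2.995, 3.56 and 3.93, against 8.798, 8.02 and 7.504 (-1.13 ± 0.26, FDR = 0.0076). None of these groups overlapped. The count was 9 when YA Ehmt2fl/fl replicate 3 or PN Ehmt2fl/fl replicate 1 was dropped, 10 for YA Ehmt2fl/fl replicate 2 and 11 for YA Ehmt2fl/fl replicate 1. Mrc1, Cd53, Plek, Coro1a, Srgn and Ccr2 fell as well, with log2 values of -1.25, -2.46, -2.09, -2.84, -1.31 and -1.40. In Ehmt2+/+, 4 of 37 were higher in YA (7.25% of all genes) and 3 lower (10.2%), with a median of -0.20 against -0.01. C1qa was lower there too, at 26.5 and 21.9 CPM in YA Ehmt2+/+, against 70.96, 86.2 and 57.01 in PN Ehmt2+/+ (-1.55 ± 0.27, FDR = 0.0029), as were Cd14 (-1.14 ± 0.31, FDR = 0.025) and Fcgr3 (-1.41 ± 0.55, FDR = 0.094). Lcp1 (1.10 ± 0.33), Itgb2 (1.02 ± 0.32), Ly6c2 (2.39 ± 0.92) and Marco (3.63 ± 1.32) were higher, at FDR values of 0.039 to 0.089. Without YA Ehmt2+/+ replicate 2, Ly6c2 was at -0.62 and Marco at -1.42, and the median was -1.04. The count of 7 was 14 without PN Ehmt2+/+ replicate 1, 1 without PN Ehmt2+/+ replicate 2 and 2 without PN Ehmt2+/+ replicate 3, and the median was 0.24 without YA Ehmt2+/+ replicate 1 and 0.06 without PN Ehmt2+/+ replicate 2. The interaction of genotype and age passed for 0 of 37 (0.0336% of all genes were higher and 0 lower), with 16 at an unadjusted p under 0.05 by edgeR and 3 passing by DESeq2, so the genotypes were not shown to differ in the change with age. Without YA Ehmt2+/+ replicate 1, 9 members passed. All age comparisons change with scaling by library totals, under which the median of all genes moved to -2.06 in Ehmt2fl/fl and -1.72 in Ehmt2+/+. The members' median less that of all genes was -0.80 in Ehmt2fl/fl and -0.12 in Ehmt2+/+ with that scaling, against -0.83 and -0.19 with TMM.

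Levels of different genes were set side by side by the deposited RPKM, which divides by transcript length, as mean ± SD over the AP Pdx1-Cre libraries (n = 2 Ehmt2fl/fl and 4 Ehmt2+/+). Lyz2 was the most abundant member per length, at 569.9 ± 37.3 RPKM in Ehmt2fl/fl and 254 ± 85.9 in Ehmt2+/+. Chil3 had 176 ± 40.9 RPKM in Ehmt2fl/fl and 57.6 ± 42.7 in Ehmt2+/+, and Ctss 126 ± 30.7 in Ehmt2fl/fl and 50.5 ± 9.56 in Ehmt2+/+. Trem1 was the least abundant, at 1.89 ± 0.546 RPKM in Ehmt2fl/fl and 0.174 ± 0.157 in Ehmt2+/+. Ptprc, at 4.74 ± 1.25 RPKM in Ehmt2fl/fl and 4.42 ± 3.57 in Ehmt2+/+, was below most members per length. With Pdx1-Cre alone, Ctss and Trem1 passed between the genotypes, and Lyz2 and Chil3 did not.

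Other genes of the same pathways were read from lists chosen, like the members, with earlier results of these data known. Of the ligands of member receptors, 6 of 8 tested were higher in Ehmt2fl/fl after caerulein over both drivers. Cxcl2, which binds Cxcr2 and attracts neutrophils, had 3.31 and 2.36 CPM in Pdx1-Cre Ehmt2fl/fl, against 0.126, 0.312, 0.3501 and 0.179 in Ehmt2+/+, and 1.798, 1.25 and 1.89 CPM in P48-Cre Ehmt2fl/fl, against 0.226 and 0.148 in Ehmt2+/+ (log2 3.33 ± 0.30, FDR = 6.9e-05). Cxcl5, a further Cxcr2 ligand, had 17.6 and 7.57 CPM in Pdx1-Cre Ehmt2fl/fl, against 0.675, 3.004, 1.996 and 0.538 in Ehmt2+/+, and 8.92, 4.82 and 10.9 CPM in P48-Cre Ehmt2fl/fl, against 1.18 and 0.198 in Ehmt2+/+ (log2 3.21 ± 0.55, FDR = 0.0030). The chemokines of Ccr2 rose too, with Ccl12 at a log2 of 2.00 ± 0.37 (FDR = 0.0047), Ccl7 at 1.46 ± 0.37 and Ccl2 at 1.38 ± 0.34. Csf1 and Il34, the ligands of Csf1r, did not pass (log2 0.69 ± 0.30 and 0.66 ± 0.25), as Csf1r itself did not. Receptor and ligand thus rose together for Cxcr2 and Ccr2.

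Of 8 other neutrophil genes tested, 7 were higher, led by Il1r2, the decoy receptor for interleukin 1 (8.39-fold, FDR = 0.0020), Mmp9, a gelatinase (4.99-fold, FDR = 0.0021), Mmp8, the neutrophil collagenase (7.54-fold, FDR = 0.0027), and Fpr2, a formyl peptide receptor (5.297-fold, FDR = 0.0038). Retnlg did not pass (log2 1.18 ± 0.48). Of 9 genes of recruited macrophages tested, 7 were higher. One of them, Spp1 (osteopontin), is also in the duct list and so enters both counts, and it had 88.3 to 219.8 CPM in untreated YA libraries. Arg1 (arginase 1) had 72.6 and 53.9 CPM in Pdx1-Cre Ehmt2fl/fl, against 1.18, 12.2, 5.36 and 1.15 in Ehmt2+/+, and 29.05, 28.7 and 112 CPM in P48-Cre Ehmt2fl/fl, against 2.35 and 0.692 in Ehmt2+/+ (19.7-fold, FDR = 0.0038). Thbs1, Vcan and F13a1 rose 4.27-fold, 4.31-fold and 6.25-fold, while Retnla (RELMα) was at a log2 of -0.60 ± 0.21. Of 10 genes of resident macrophages tested, 4 were higher, among them Maf, a transcription factor of macrophages, Folr2 and Stab1 (log2 1.03 ± 0.19, 1.39 ± 0.34 and 1.06 ± 0.39). Timd4, Lyve1 and Cx3cr1 were at log2 values of -0.67 ± 0.68, -0.30 ± 0.38 and -0.10 ± 0.23. Signalling genes after ITAM receptors, the class of Fcer1g and Tyrobp, passed for 3 of 8, among them the Src-family kinase Fgr (1.505 ± 0.19) and the adaptor Card9 (1.47 ± 0.21), both higher, while Syk was at 0.34 ± 0.34 (FDR = 0.59). Other leukocyte integrins and selectin genes passed for 0 of 5 by edgeR, with 0 at an unadjusted p under 0.05 and Itgal at -0.07 ± 0.45 (FDR = 0.95). By edgeR, 0 of 10 dendritic cell, 0 of 8 endothelial and 0 of 7 fibroblast markers passed, with 2, 1 and 2 at an unadjusted p under 0.05, and 3 of 6 duct markers were higher. Acinar markers passed as lower for 7 of 10. Their share of counts was lower in both Pdx1-Cre Ehmt2fl/fl libraries than in all Ehmt2+/+ libraries of that driver, and overlapped with P48-Cre, where the Ehmt2fl/fl library with the highest sum of the members had the highest share of its group, 24.7%. By summed CPM the acinar markers were apart with P48-Cre as well, at 142900, 189509 and 231839 in Ehmt2fl/fl, against 329101 and 372210 in Ehmt2+/+. The part of the acinar markers in the results was not tested.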

How the data were processed

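Poly(A) RNA was sequenced from the pancreas of 22 mice (8 groups), and the authors deposited 6 comparison tables with raw read counts per gene, made by mapping to a GENCODE transcriptome of GRCm38.p6 with the MapRSeq3 workflow. The deposited RPKM values were scaled by the authors within each table. Their own fold changes and p-values were not used. Each table omits genes that its filter removed, and the same gene and library had the same count in all tables (134862 counts compared, 0 differed). Submitters' processing notes name edgeR 3.28.1.

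The counts were joined by gene identifier and scaled by TMM. Genes passed filterByExpr (minimum count 10, minimum total 15) and were tested by edgeR 4.0.16 in R 4.3.3 with the quasi-likelihood test. No model held all 8 groups. Comparisons at PN, at YA or between these ages were fitted over the untreated Pdx1-Cre groups. Caerulein against untreated was fitted over the AP and YA groups with Pdx1-Cre. Genotype after caerulein was fitted over the AP groups of both drivers. Where the counts of a gene covered only part of such a set, the compared groups alone were used. A gene passed at an FDR under 0.1 (Benjamini-Hochberg over all genes tested) and a log2 difference of at least 1. The both-drivers comparison fits a genotype difference taken as common to Pdx1-Cre and P48-Cre, with the driver as a covariate. DESeq2 1.42.0, other scalings and filters, and leaving out each library were alternatives. Covariates for lymphocyte markers, transcript length balance, sex and the share of ribosomal RNA were added after the data were seen. The tests were checked on simulated counts.

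Per-library values were named for up to 4 members per role with the lowest FDR over both drivers, with members against the direction, and in comparisons with fewer than 5 calls for up to 10 with the lowest unadjusted p under 0.05. In the caerulein and age comparisons fewer than the rule allows are described, and Lgals3 and S100a8 in untreated pancreas were chosen after their values were seen. The members and lists were chosen with earlier results of these data known, and the study names several of them. Library totals of 14229980 to 40321967 counts limit precision for genes at a few counts. Gene positions are from GENCODE on GRCm38, promoters from RefSeq. Replicates are mice with separate identifiers in the labels. Protein sequences were not used here, and a few genes of the pathway lists are not reported here.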

Additional observations from a re-analysis of the deposited data

Results flagged for a closer look

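In AP Pdx1-Cre Ehmt2+/+, the only group of 4 libraries, replicate 2 lay far above the other libraries for Msr1, at 31.7 CPM, and for Fcgr3, at 17.1 CPM. Of 45 genes looked at in that group 2 stood apart in this way, where chance does so for about 1 group in 20. Replicate 2 was still below both AP Pdx1-Cre Ehmt2fl/fl libraries for either gene.

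The response to caerulein differed between Ehmt2fl/fl and Ehmt2+/+ for 5 members by the edgeR interaction test, with log2 differences of 2.94 for Srgn (FDR = 0.040), 2.21 for Itgb2 (FDR = 0.032), 2.37 for Mrc1 (FDR = 0.040), 2.10 for Fcgr2b (FDR = 0.060) and 3.38 for Ncf4 (FDR = 0.095). None of the 43 members passed without YA Ehmt2+/+ replicate 2, which had more lymphocyte transcripts than replicate 1, or without AP Ehmt2fl/fl replicate 1. The part of the lymphocyte transcripts in the interaction was not tested.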

How the results depend on the processing

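Over both drivers the count of 30 members that passed stayed within 1.5 times under every alternative run, and all 30 also passed with RLE size factors, library totals, no filter and DESeq2. Under scaling by library totals the median log2 of all genes moved to 0.81 over both drivers and the members' median to 2.15, which left the difference between them at 1.34. With this scaling the members' median was 2.19 with Pdx1-Cre, 2.14 with P48-Cre, 6.97 for caerulein in Ehmt2fl/fl, 3.45 for caerulein in Ehmt2+/+, 2.80 for genotype by caerulein, -1.36 for genotype by age, -2.86 for age in Ehmt2fl/fl and -1.84 for age in Ehmt2+/+. The members that passed numbered 43 with Pdx1-Cre, 40 with P48-Cre, 31 for genotype by caerulein, 37 for age in Ehmt2fl/fl and 24 for age in Ehmt2+/+, where Lcp1 turned to -0.54 and Itgb2 to -0.68. The shift of all genes is part of this scaling. Their median under it was 0.84 with Pdx1-Cre, 0.82 with P48-Cre, 0.81 for genotype by caerulein, -2.06 for age in Ehmt2fl/fl and -1.72 for age in Ehmt2+/+. Shares of all genes that passed are not given for this or the other alternatives, so counts under them are not results about the members alone.

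DESeq2 passed 18 members for genotype by caerulein, 3 for YA and 3 for genotype by age. At an FDR under 0.05, 13 members passed with Pdx1-Cre, 10 with P48-Cre, 3 for genotype by caerulein, 11 for age in Ehmt2fl/fl and 4 for age in Ehmt2+/+. With the compared groups alone, 2 passed for age in Ehmt2+/+. With lymphocyte markers as a covariate, the median was 0.12 at PN, 0.18 at YA (Lcp1 at 0.021) and -0.75 for age in Ehmt2+/+, where 2 members passed, Ly6c2 was at -0.28 and Marco at -1.81. With it 11 passed for age in Ehmt2fl/fl. In these PN and YA comparisons the covariate held only Lck and Jchain, the markers with counts in every library. With transcript length balance as a covariate, 10 passed with P48-Cre, 4 at YA and 4 for age in Ehmt2+/+. With the share of ribosomal RNA as a covariate, 0 passed with P48-Cre, 21 with Pdx1-Cre and 23 over both drivers. For these changes the cause was not tested.

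With 1 library left out, the members that passed ranged from 2 to 26 with Pdx1-Cre, 0 to 16 with P48-Cre, 0 to 20 for genotype by caerulein, 0 to 10 at YA, 0 to 2 at PN, 1 to 14 for age in Ehmt2+/+, 9 to 17 for age in Ehmt2fl/fl and 0 to 9 for genotype by age. The median ranged from 1.08 to 1.86 with P48-Cre, -0.16 to 0.51 for genotype by driver, 4.34 to 4.75 for caerulein in Ehmt2fl/fl, 1.67 to 3.86 for caerulein in Ehmt2+/+, 0.81 to 2.17 for genotype by caerulein, -0.79 to 0.41 at YA, -1.04 to 0.24 for age in Ehmt2+/+ (0.06 without PN Ehmt2+/+ replicate 2) and -1.28 to -0.086 for genotype by age. Ncf1 at YA ranged from -3.06 to 0.030, and for age in Ehmt2+/+ Ly6c2 ranged from -0.62 to 3.49 and Marco from -1.42 to 5.10. A group left with 1 library is assumed to vary like the other groups.

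No paired analysis was possible because the labels give the groups no shared replicate numbers. Groups of 2 to 4 mice limit every comparison, and neutrophil members had few counts in untreated pancreas. In AP Pdx1-Cre sex and genotype cannot be told apart, and caerulein and fasting cannot be told apart. Sex was also unbalanced between AP and untreated YA mice of Pdx1-Cre, and its part in the caerulein comparisons was not tested.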
